A study of Mus musculus with 8 samples.

Results

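The genes described here are 8 genes of the podocyte, Nphs1, Podxl, Synpo, Ptpro, Cd2ap, Plce1, Clic5 and Lmx1b, measured in kidneys of p53 null mouse embryos and set against kidneys of wild-type embryos. Both genotypes were C57BL/6 and were taken at embryonic day 15.5. The members were taken as a fixed set of gene symbols, matched to probes through their RefSeq accession, and 15 of 41174 probes named them. Each of 8 arrays carried null RNA in one dye and wild-type RNA in the other. The labels count 3 biological replicates: replicate 1 had 4 arrays, in a dye-swapped pair and its duplicate, while each of the other replicates had 1 such pair. The null allele, and the number of embryos or litters behind each RNA, are not given in the sources used here. Each value is a log2 ratio, null over wild type, and an average is the mean ± SD of the 3 replicates.

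Podocytes are the epithelial cells that wrap the capillaries of the glomerulus, the filter of the kidney. Their foot processes interlock, and the gap between them is bridged by the slit diaphragm, a junction built around nephrin and tied to the actin cytoskeleton by adaptor proteins. In the embryonic kidney podocytes form from the proximal end of the young nephron, and slit diaphragm genes come on as the glomerulus matures. p53, encoded by Trp53, is a transcription factor that binds DNA as a tetramer and regulates genes of cell cycle arrest and cell death.

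Several facts of the whole series bear on the podocyte genes. Replicate 1 lay on slide 1 and replicates 2 and 3 on slide 2. Over the 20865 tested probes the ratios of replicate 1 correlated with those of replicates 2 and 3 at 0.06 and −0.154, whereas replicates 2 and 3 correlated at 0.928; these are correlations across probes, which are not independent. The names of the deposited scanner files give the wild-type RNA of replicates 2 and 3 the same number. The wild-type channels of these replicates differed by an SD of 0.137 (Cy3) and 0.141 (Cy5) on the log2 scale. Repeat hybridisations of the wild-type RNA of replicate 1 differed by 0.175 and 0.150. The null channels of replicates 2 and 3 differed by 0.183 (Cy5) and 0.198 (Cy3), against 0.186 and 0.135 between repeats of replicate 1. It is thus not settled that the wild-type RNAs of replicates 2 and 3 are separate samples. A test that rests on slide 2 alone has p-values that may be too small. The fit of all 3 replicates also counts replicates 2 and 3 as separate. Its p-values may thus be too small and its confidence intervals too narrow. Replicate 1 and slide cannot be told apart, and the ratio of each member's brightest probe and the counts of each list are given with and without replicate 1. Without it, a fit rests on the spread between 2 replicates of 1 slide. The brighter Trp53 probe had a ratio of −0.67 ± 0.36, below 0 on 8 of 8 arrays, and its other probe had 0.16. The labels do not say which part of the gene the null allele lacks, and only a probe inside that part could check them. Of 10 genes that mark the developing kidney, 8 stood well above background on every array in both genotypes, the exceptions being Ret and Hoxd11.

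Of the 8 podocyte genes, 7 were measured and none of them passed the test. Nphs1, Podxl and Synpo were lower in null kidneys in replicate 1 and higher in both other replicates. Clic5 was the member with the highest ratio (0.33 ± 0.21, 1.26 times the wild-type level) and lay above 0 on every array. Ptpro and Cd2ap lay within 0.10 of 0 on average. In a whole kidney, a different number of podocytes, a different amount of transcript per podocyte and transcript from other cells cannot be told apart. Each probe's 3 replicate values were tested against 0 with limma's moderated statistic, and p-values were adjusted over the whole array by Benjamini and Hochberg's method. At an adjusted p of 0.05 this called 0 of 7 members and 0% of the 12000 genes. At an unadjusted p under 0.05 it held 1 of 7 members, Clic5, against 18.2% of all genes (9.23% higher, as Clic5 was). No member's average passed 0.5 in either direction, which 6.88% of all genes did. Turning the signs of 3 replicates in every way gives no exact p under 0.25.

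**Figure D1:**
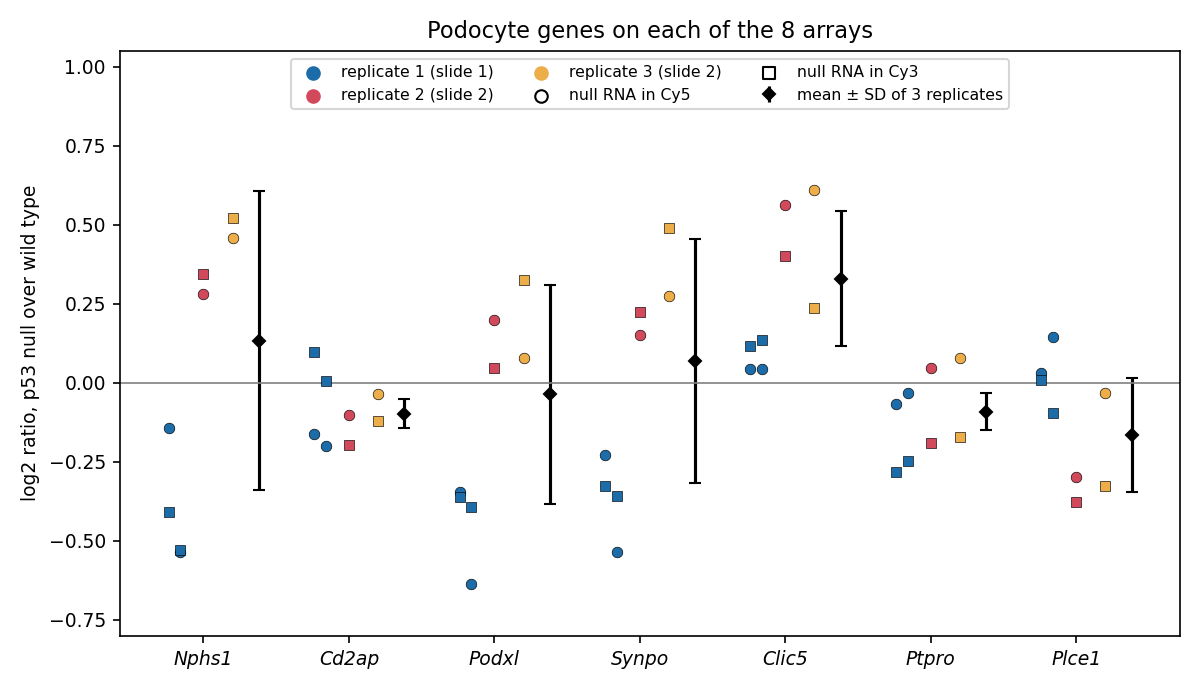
Log2 ratio of null over wild type on each of the 8 arrays for the 7 measured podocyte genes (brightest probe), with the replicate in colour, the dye of the null RNA as the shape of the point, and the mean ± SD of the 3 replicates as a diamond with bars. Points of replicate 1 lie below 0 and those of replicates 2 and 3 above 0 for Nphs1, Podxl and Synpo, and every point of Clic5 lies above 0.

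The scanner files flag a spot as well above background or not in each channel. For the 7 measured genes the brightest probe had that flag in null and in wild type on 8 of 8 arrays. A probe was kept if the same genotype had the flag on 50% or more of each replicate's arrays, and 10 of the 15 probes were kept. The other 5 probes were a second probe of Ptpro, Plce1 and Clic5, the dimmest Synpo probe, which carries the accession of another transcript, and the only probe of Lmx1b. Of these, 3 had the flag on 0 of 8 arrays in either genotype. All replicate ratios of the 5 dim probes lay between −0.11 and 0.05.

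**Figure D2:**
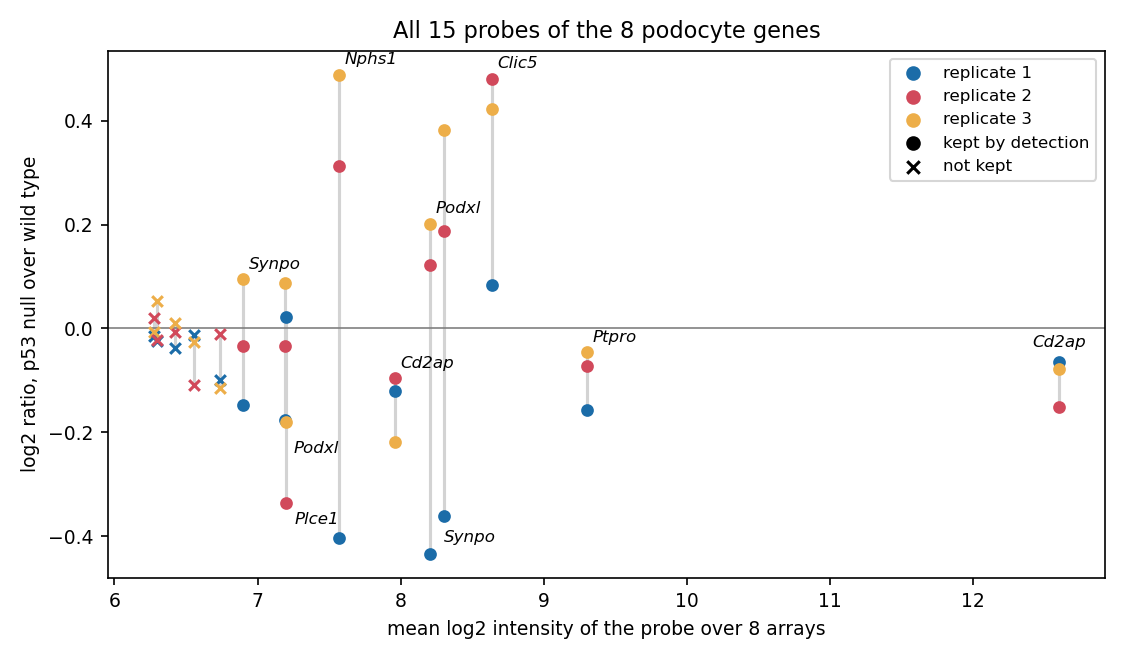
Replicate log2 ratios of null over wild type (y axis) for all 15 probes of the 8 genes, placed by the probe's mean log2 intensity over 8 arrays (x axis), with kept probes as circles and probes that were not kept as crosses. The crosses lie between −0.11 and 0.05, and the replicates of the brighter Nphs1, Podxl and Synpo probes spread over both sides of 0.

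Nphs1, on chromosome 7, encodes nephrin, the adhesion protein of the immunoglobulin superfamily that spans the slit. The 4 arrays of replicate 1 gave −0.14, −0.41, −0.54 and −0.53. The arrays of replicate 2 gave 0.28 and 0.34 and those of replicate 3 gave 0.46 and 0.52. All 4 arrays of slide 1 were thus below 0 and all 4 of slide 2 above it. The replicates of 25.9% of all genes had this pattern of signs. The replicate ratios of −0.40, 0.31 and 0.49 averaged 0.13 ± 0.47 (SD, n = 3), with a 95% confidence interval from −0.41 to 0.68 and an adjusted p of 0.733 in limma's test. The null channel had a log2 intensity of 7.17, 7.89 and 8.06 in replicates 1, 2 and 3, and the wild-type channel had 7.57, 7.58 and 7.57. Levels of the same probe differ between the slides for many genes, so these intensities do not place the difference in either genotype. Without replicate 1 the ratio was 0.40 and passed (limma, adjusted p = 2.01e-05). So did 60.1% of all genes in that fit, whose 2 replicates share a slide and may share wild-type RNA.

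Cd2ap, on chromosome 17, encodes an adaptor that links nephrin to the actin cytoskeleton. Its brightest probe gave −0.16, 0.10, −0.20 and 0.01 in replicate 1, −0.10 and −0.20 in replicate 2, and −0.03 and −0.12 in replicate 3. It was below 0 on 6 of 8 arrays and in each replicate, with an average of −0.10 ± 0.05 that did not pass (95% confidence interval −0.29 to 0.09, adjusted p = 0.480). The second probe averaged −0.15 ± 0.06 (adjusted p = 0.358) and was also below 0 in each replicate. Without replicate 1 the brightest probe did not pass either, at −0.11.

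Podxl, on chromosome 6, encodes podocalyxin, the charged sialoglycoprotein that coats the foot processes. Its brighter probe gave −0.35, −0.36, −0.64 and −0.39 in replicate 1, 0.20 and 0.05 in replicate 2, and 0.08 and 0.32 in replicate 3. Slide 1 was below 0 and slide 2 above it, a pattern of signs that the replicates of 25.9% of all genes had. The average was −0.04 ± 0.35 (95% confidence interval −0.45 to 0.38, adjusted p = 0.910). Its second kept probe moved less, at −0.18, −0.03 and 0.09 in replicates 1, 2 and 3 (−0.04 ± 0.13, adjusted p = 0.810). The probes also disagreed in level between slides: the brighter probe had a log2 intensity on slide 1 that was 1.59 above slide 2 in null and 2.19 above it in wild type, while the second probe was lower on slide 1 by 0.72 in null and 0.51 in wild type. Without replicate 1 the brighter probe averaged 0.16 (limma, adjusted p = 0.0489), in a fit that 60.1% of all genes passed.

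Synpo, on chromosome 18, encodes synaptopodin, an actin-binding protein of differentiated foot processes. The brightest of its 3 probes gave −0.23, −0.33, −0.53 and −0.36 in replicate 1, 0.15 and 0.23 in replicate 2, and 0.28 and 0.49 in replicate 3. As with Nphs1, slide 1 was below 0 and slide 2 above it, which the replicates of 25.9% of all genes were too. The average was 0.07 ± 0.39 (95% confidence interval −0.39 to 0.53, limma, adjusted p = 0.838). The second kept probe had the same order at a smaller size, with −0.15, −0.03 and 0.10 (−0.03 ± 0.12, adjusted p = 0.868). Without replicate 1 the brightest probe passed at 0.29 (limma, adjusted p = 0.0012), as 60.1% of all genes did in that fit.

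**Figure D3:**
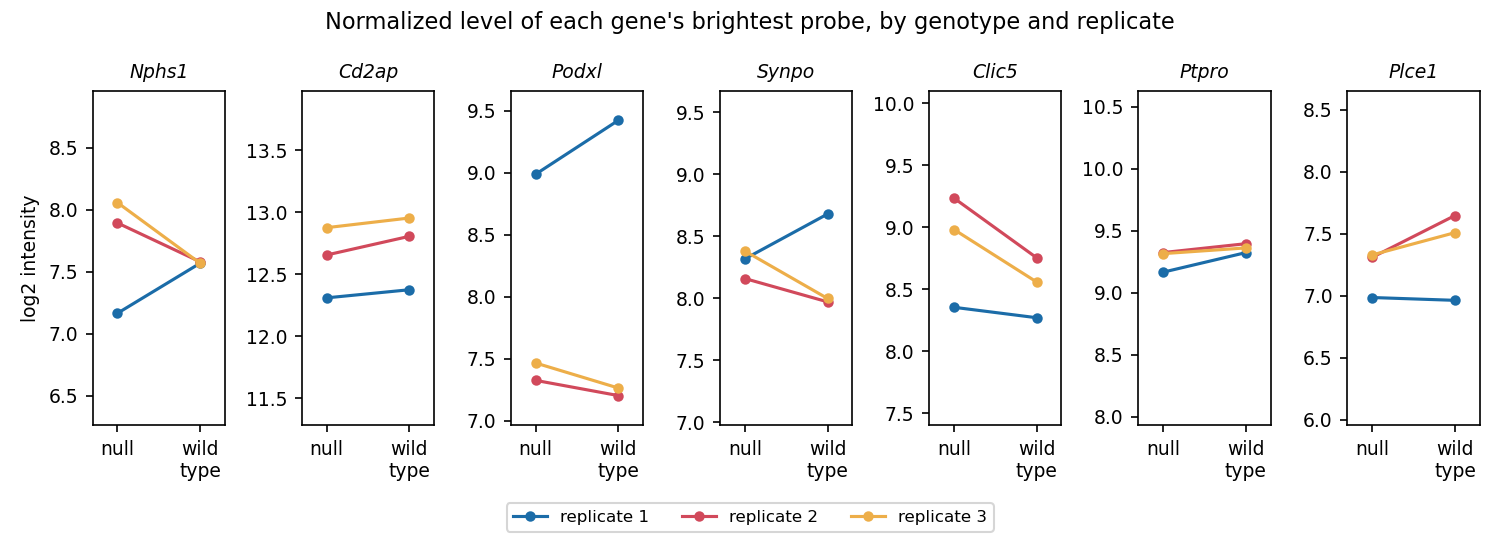
Normalized log2 intensity of the brightest probe in null (left) and wild-type (right) kidneys, a line for each replicate and a panel for each gene, all panels spanning the same range. The Nphs1 lines meet at 7.57 to 7.58 in wild type and part in null, while the Podxl probe stands higher in replicate 1 in both genotypes. Levels of the same probe differ between the slides for many genes, so the lines do not place a difference in either genotype.

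Clic5, on chromosome 17, encodes an intracellular chloride channel family protein found with podocalyxin and ezrin at the foot process membrane. Its brightest probe gave 0.04, 0.12, 0.04 and 0.13 in replicate 1, 0.56 and 0.40 in replicate 2, and 0.61 and 0.24 in replicate 3. It was the only measured member above 0 on all 8 arrays, a pattern that 7.58% of all genes had. None was below 0 on all 8, as 7.91% of genes were. The replicate ratios of 0.08, 0.48 and 0.42 averaged 0.33 ± 0.21 (95% confidence interval 0.03 to 0.63), which did not pass in limma's fit across all probes (adjusted p = 0.284). The null channel had a log2 intensity of 8.36, 9.24 and 8.98 in the 3 replicates and the wild-type channel had 8.27, 8.75 and 8.56. The second Clic5 probe, well above background on 5 arrays in null and 4 in wild type, averaged −0.07 ± 0.06 and was below 0 on all 8 arrays, so the probes of this gene differed in sign. Without replicate 1 the brightest probe had 0.45 (limma, adjusted p = 2.38e-06), in a fit that 60.1% of all genes passed.

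Ptpro, on chromosome 6, encodes a receptor-type tyrosine phosphatase of the foot process membrane. Its brightest probe gave −0.07, −0.03, 0.05 and 0.08 on the 4 arrays with null RNA in Cy5, and −0.28, −0.25, −0.19 and −0.17 on those with null RNA in Cy3. The means of the dye orientations lay 0.12 to either side of the average ratio of −0.09 ± 0.06. Replicates 1, 2 and 3, in which the orientations are averaged, had −0.16, −0.07 and −0.05 (95% confidence interval −0.29 to 0.10, adjusted p = 0.513), and without replicate 1 the ratio was −0.06.

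Plce1, on chromosome 19, encodes phospholipase C epsilon, a signalling enzyme whose loss causes a nephrotic syndrome in human patients. Its brightest probe gave 0.03, 0.01, 0.14 and −0.095 in replicate 1, −0.30 and −0.38 in replicate 2, and −0.03 and −0.33 in replicate 3. It thus ran opposite to Nphs1, lying near 0 on slide 1 and below 0 on slide 2, and 1 array of slide 2 lay within the range of slide 1. The average was −0.16 ± 0.18 (95% confidence interval −0.43 to 0.10, adjusted p = 0.416). Without replicate 1 it was −0.26 (limma, adjusted p = 0.0027), in a fit that 60.1% of all genes passed.

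Lmx1b, on chromosome 2, encodes a homeodomain transcription factor needed for podocyte differentiation. Its probe had the flag on no array in null or in wild type, so no ratio was tested. The array ratios lay between −0.14 and 0.12 and averaged −0.01 ± 0.02, which at this signal sets no bound on a difference.

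Because p53 is the protein removed here, the 250 bases before the RefSeq start of each member were read for the p53 consensus decamer, a pair of which forms the p53 response element. The decamer reads the same on both strands, so a single scan covers them. Sequences were at hand for 6 members, not for Podxl and Synpo. A match was present in 1 of the 6, Plce1, starting 47 bases before its start, and in 7.13% of 32851 promoters of the same length. The Plce1 sequence is shown for that match, in capitals, and the Clic5 sequence as that of the member with 1 sign on all arrays, which holds none (RefSeq, GRCm38.p6, plus strand, chr19:38523947-38524196 and chr17:44188322-44188571). A match is a run of letters and shows no binding.
Plce1: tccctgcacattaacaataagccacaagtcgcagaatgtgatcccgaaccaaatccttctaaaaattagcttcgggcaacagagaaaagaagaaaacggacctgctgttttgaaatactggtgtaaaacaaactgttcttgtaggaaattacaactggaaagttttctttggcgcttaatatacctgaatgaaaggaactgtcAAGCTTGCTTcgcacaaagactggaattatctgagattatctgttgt
Clic5: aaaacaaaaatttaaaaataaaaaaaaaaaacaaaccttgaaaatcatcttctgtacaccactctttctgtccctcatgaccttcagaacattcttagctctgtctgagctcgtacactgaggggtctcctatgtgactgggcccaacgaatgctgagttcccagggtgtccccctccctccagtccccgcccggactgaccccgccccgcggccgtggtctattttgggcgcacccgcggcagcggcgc

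The slides were then compared directly as slide 2 minus slide 1, in a limma fit whose spread comes from replicates 2 and 3 alone. The log2 ratio differed by 0.80 for Nphs1, 0.65 for Synpo, 0.60 for Podxl, 0.37 for Clic5, 0.10 for Ptpro, −0.05 for Cd2ap and −0.28 for Plce1. The second probes of Podxl and Synpo differed by less, 0.20 and 0.18. The fit called 4 of 7 members, Nphs1, Synpo, Podxl and Clic5, against 47.9% of all genes. Slide 1 holds a single replicate, and the spread between replicates 2 and 3, which may share wild-type RNA, can be too small, so nothing is read from these calls. Replicate 1 had the opposite sign to both other replicates in 4 of 7 members and in 45.4% of all genes. The pattern of Nphs1, Podxl and Synpo, below 0 in replicate 1 and above 0 in replicates 2 and 3, was shared by 25.9% of all genes, and the opposite pattern of Plce1 by 19.5%. The sign was the same in all 3 replicates for 3 of 7 members, against 40.2% of all genes: 1 was higher, against 20.4%, and 2 were lower, against 19.7%. With slide as a fixed block, 1 of 7 members passed, Clic5 at 0.27, where 43.2% of all genes passed. The spread of that fit also comes from replicates 2 and 3 alone, so nothing is read from its calls either. With 1 value per slide none passed, of the members or of all genes (0%). With all arrays and the replicate as a random effect, 0 of 7 members and 6.18% of all genes passed. Without replicate 1, 5 of 7 members passed, 4 higher and 1 lower, against 60.1% of all genes (3952 of 12000 higher and 3258 lower).

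**Figure D4:**
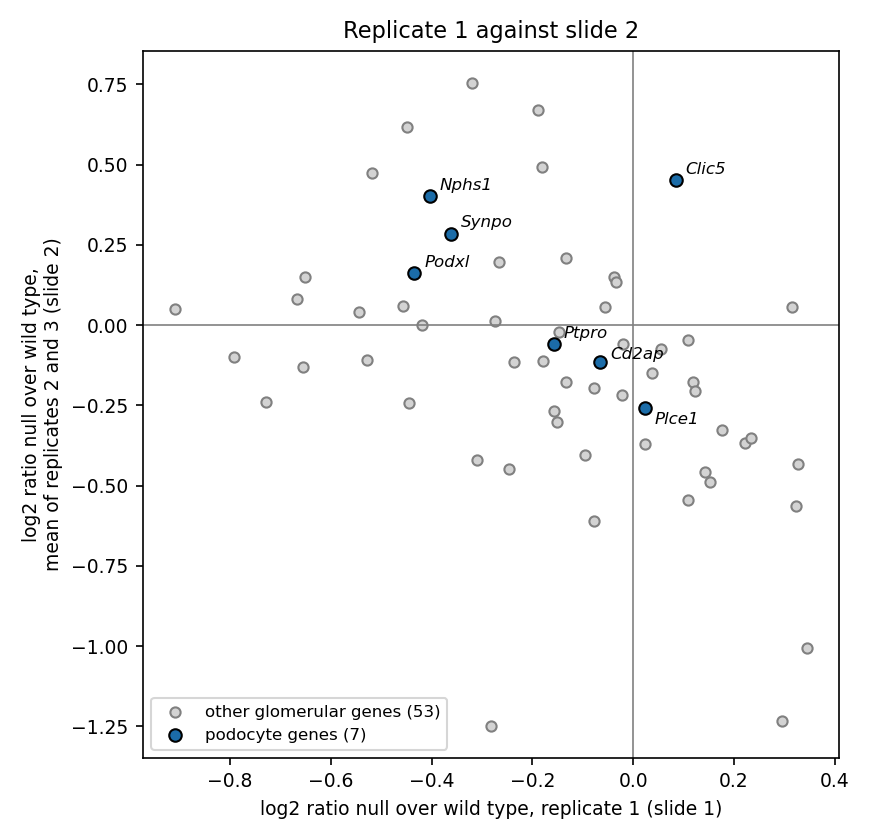
Log2 ratio of null over wild type in replicate 1 (x axis) against the mean of replicates 2 and 3 (y axis) for the 7 measured podocyte genes (filled) and 53 other glomerular genes (grey). Nphs1, Synpo and Podxl lie in the upper left, Clic5 in the upper right, Ptpro and Cd2ap lower left and Plce1 lower right.

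The median ratio of the 7 members was −0.04, with −0.16, 0.12 and 0.20 in replicates 1, 2 and 3, beside 0.00 over all genes and −0.02, 0.02 and 0.03 by replicate. Its sign depends on the settings. It was 0.028 with a normexp offset of 10 and 0.087 with the scanner program's log ratio, where the median of all genes stayed at 0.00. Loess puts the bulk of the probes at 0 on each array over the whole range of brightness, whereas median centring moved the median of all genes up by 0.15, and 9059 of 12000 genes were then above 0. The members' median was then 0.18, or 0.02 relative to all genes. Relative to all genes under median centring, Clic5 stood at 0.35, Nphs1 at 0.11, Synpo at 0.04, Cd2ap at 0.02, Ptpro at −0.06, Podxl at −0.15 and Plce1 at −0.21.

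The genes around the members were read from 5 lists of 66 genes. Of these, 62 had a named probe and 53 were tested. None of the 53 passed (limma, adjusted p), and 9 had an unadjusted p under 0.05, all lower in null kidneys, against 8.93% of all genes lower at that p. A mean below 0 was found for 41 of the 53 (77.4%), against 49.2% of all genes, and the median was −0.16. With median centring the split was 23 below and 30 above 0, where 2941 of 12000 genes lay below 0, and the median was 0.03 against 0.15 for all genes. Without replicate 1, 32 of 53 passed (60.4%), a share close to the 60.1% of all genes that passed in that fit. Of the 32, 7 were higher and 25 lower, where 3952 of 12000 genes were called higher and 3258 lower.

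Slit diaphragm and junction partners (11 tested) had a median of −0.15. Iqgap1, a scaffold that binds nephrin, had −0.31, −0.52 and −0.32 in replicates 1, 2 and 3, an average of −0.38 ± 0.12 (adjusted p = 0.279). Pard3, of the polarity complex, had −0.25 ± 0.09 and Magi1, a junction scaffold, −0.15 ± 0.11. Their other tested probes averaged 0.05, −0.09 and −0.18 for Pard3 and −0.16 and −0.03 for Magi1. Without replicate 1 the brightest probes of Iqgap1, Pard3 and Magi1 had −0.42, −0.30 and −0.22, and the list's median was −0.22. In that fit 8 of 11 passed, 2 higher and 6 lower, against 60.1% of all genes. Podocyte actin genes (13 tested) had a median of −0.11, with 9 averages below 0 and 4 above it, between −0.26 and 0.40. Of 1 sign in all replicates were Actn4, an actin crosslinker, at −0.16 ± 0.08 and the motor gene Myo1e at −0.15 ± 0.08. Leaving out replicate 1 gave this list a median of 0.0005. Then 6 of 13 passed, 3 higher and 3 lower, against 60.1% of all genes.

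Podocyte transcription factors (6 tested) had a median of −0.06 and none of 1 sign in all replicates. Replicate 1 was below 0 and the other replicates above it in 2 of them, and the reverse in 3. Wt1, the regulator of podocyte fate, had 0.11, −0.05 and −0.04 in replicates 1, 2 and 3. When replicate 1 was left out the median was 0.04. Then 3 of 6 passed, 1 higher and 2 lower, against 60.1% of all genes. Among receptors and secreted factors (9 tested, median −0.16), Vegfa, the endothelial growth factor that podocytes supply, had −0.28, −1.27 and −1.22, an average of −0.93 ± 0.56 (limma, adjusted p = 0.279). Bmp7 had −0.43 ± 0.31 and Pla2r1 −0.30 ± 0.18. On slide 2 alone the median was −0.21. There 7 of 9 passed, 1 higher and 6 lower, against 60.1% of all genes.

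Genes of the glomerular basement membrane and its receptors (14 tested) had a median of −0.29. Of their means 14 of 14 were below 0, against 49.2% of all genes, and 4 of 14 were lower at an unadjusted p under 0.05, against 8.93%. In all 3 replicates 6 of the 14 were below 0, against 19.7% of all genes. Median centring gave 10 below and 4 above 0, where 2941 of 12000 genes lay below 0. Replicates 2 and 3 alone gave a median of −0.21, and 8 of 14 passed, 0 higher and 8 lower. Of all genes 60.1% passed, with 3952 of 12000 higher and 3258 lower. Nid2, a nidogen, had −0.25, −0.52 and −0.37 in the 3 replicates (−0.38 ± 0.14), the collagen gene Col4a1 −0.31 ± 0.18, and the integrin gene Itgb1, −0.23 ± 0.06. Their adjusted p-values did not pass. A mean below 0 throughout was not particular to this list. Stromal genes had it in 10 of 10, with 7 below 0 in all 3 replicates and 6 lower at an unadjusted p under 0.05.

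**Figure D5:**
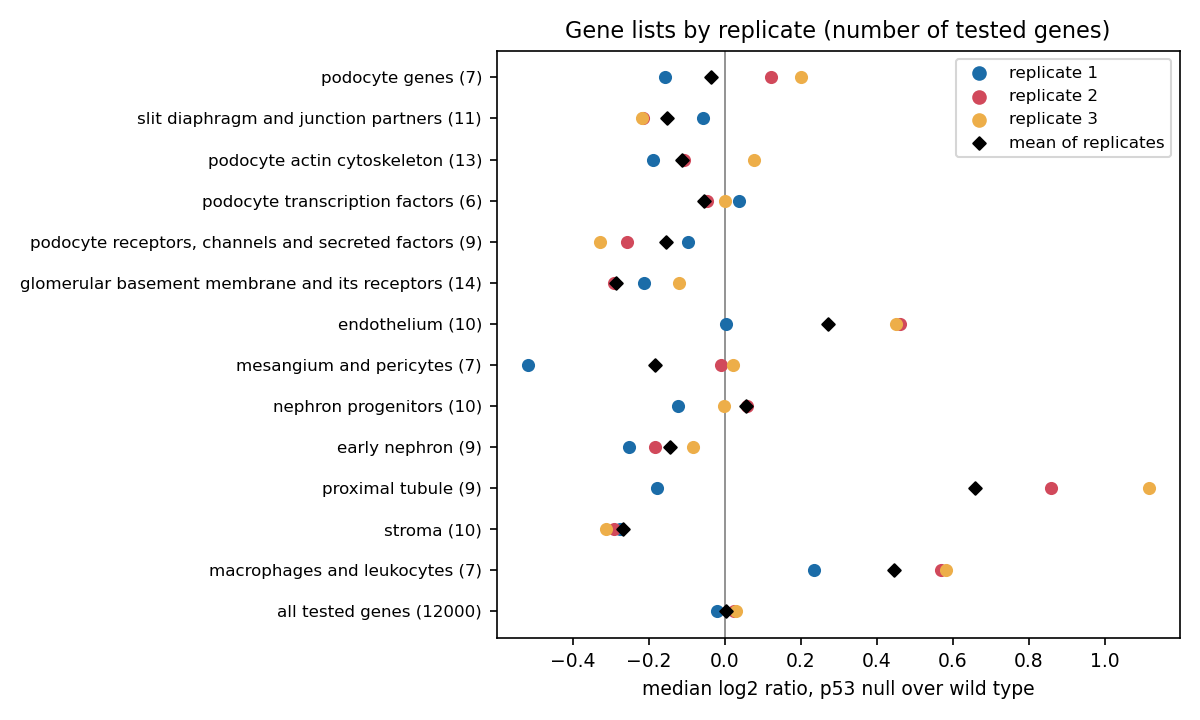
Median log2 ratio of null over wild type of each gene list in replicates 1, 2 and 3 (coloured points) and of the means of the replicates (diamonds), with the number of tested genes in brackets. The podocyte genes lie at −0.16 in replicate 1 and at 0.12 and 0.20 in replicates 2 and 3; proximal tubule genes part further, at −0.18 in replicate 1 and 0.86 and 1.12 in the others.

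Markers of other cell types differed between the slides too. Proximal tubule genes (9 tested of 10 listed) had medians of −0.18 in replicate 1 and 1.08 on slide 2, endothelial genes (10 tested) 0.00 and 0.45, macrophage and leukocyte genes (7 tested of 8 listed) 0.24 and 0.53, and mesangium and pericyte genes (7 tested) −0.52 and 0.01. The podocyte genes had −0.16 and 0.16. The median of stromal genes lay below 0 on both slides (10 tested, −0.27 and −0.34), as did that of early nephron genes (9 tested of 10 listed, −0.25 and −0.11), while nephron progenitor genes had −0.12 and 0.06 (10 tested). None of the genes in these lists passed in the fit of all replicates, which called 0% of all genes. Without replicate 1, 7 of 9 proximal tubule, 9 of 10 endothelial, 7 of 7 macrophage and leukocyte, 6 of 7 mesangium and pericyte, 9 of 10 stromal, 5 of 9 early nephron and 7 of 10 nephron progenitor genes passed, against 60.1% of all genes. With the replicate as a random effect, 3 of 7 macrophage and leukocyte and 2 of 10 stromal genes passed, and 1 each of the endothelial, mesangium and pericyte, and early nephron genes, against 6.18% of all genes. What part these markers have in the podocyte ratios was not tested.

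The gene whose 8 array ratios were nearest to those of each member was found by the root mean square difference over the arrays, among 11734 genes. It was Rftn1 for Nphs1 (0.0641), Ints4 for Podxl (0.0736), Pars2 for Synpo (0.0257), Ankrd40 for Ptpro (0.0484), Ggnbp2 for Cd2ap (0.0454), Fgf11 for Plce1 (0.0582) and Setd4 for Clic5 (0.0522). Rftn1 had −0.47, 0.33 and 0.43 in replicates 1, 2 and 3 and Setd4 had 0.07, 0.39 and 0.40, a likeness that the choice itself fixes. None of these 7 genes belongs to the glomerular lists, which hold only 53 of the 12000 tested genes, so nothing is read from this.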

How the data were processed

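The authors deposited 1 scanner file per array, with linear intensity of spots and local background and quality flags. Per the file headers the software was Agilent Feature Extraction 10.5.1.1, whereas version 6.1 stands in the submitters' processing notes. A deposited value table holds the program's log10 ratio, per the file headers, turned to null over wild type; the same ratio from the scanner files served as an alternative. RNA was labelled directly as cDNA, per the labels' protocols.

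Median signals were background-corrected (normexp, offset 50, which compresses ratios of dim probes) and loess-normalized in limma 3.58.1 under R 4.3.3, with control spots at weight 0 and outlier spots missing. Log2 ratios from the deposited intensity values were turned to null over wild type, averaged over spots, then within and across dye orientations of a replicate. Levels come from the same values after quantile normalization between arrays (Aquantile). The fit had 4.22 degrees of freedom in all and the threshold was 0.05. The code was tested on simulated data. It recovered 3 of 50 probes changed 1.5-fold, 24 of 50 changed 2-fold, 44 of 50 changed 4-fold and 44 of 50 changed 8-fold. With no probe changed the count was 3. These counts check the code and are not read as its power on these data.

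Probes were named through a RefSeq table of GRCm38.p6; the headers give mm9 as the design's build, so no probe position is printed. A gene is represented by its brightest tested probe. Named are the members, the nearest gene of each, up to 3 genes of a list with the smallest p among those of 1 sign in all replicates, and Trp53; Wt1 was named after its values were seen. Some genes of the lists are not reported here. Members and lists were chosen with earlier results of these data known. Alternatives were other background and scaling settings, detection filters, probe averaging, replicates left out and slide blocks. The number of arrays limits precision.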

Additional observations from a re-analysis of the deposited data

Results flagged for a closer look

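Each of the 15 podocyte probes was checked for an array far from the other arrays, and 1 was found. The dim Ptpro probe, which was not kept, had −0.23 on the array of replicate 2 with null RNA in Cy5, where its nearest other array had −0.07 and the highest had 0.01. The probe was well above background on 5 of 8 arrays in each genotype. Chance alone flags about 5% of groups in such a check, and no result above rests on this probe.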

How the results depend on the processing

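None of the 7 measured members passed under the background, scaling, detection and probe-averaging alternatives, each of which called 0% of all genes. Leaving out replicates gave 0 to 5 members called and a members' median of −0.11 to 0.16. It gave 0 to 11699 probes called and 0 to 32 of the other 53 glomerular genes. The upper ends are all without replicate 1, where 60.1% of all genes passed. Slide as a fixed block gave 1 member, 8521 probes and 30 of the 53, against 43.2% of all genes. The spread of that fit comes only from the replicates that share a slide, so nothing is read from its counts. The replicate as a random effect over all arrays gave 1136 probes and 1 of the 53, with 0 members, against 6.18% of all genes. The members' median was 0.18 with median centring, or 0.02 relative to all genes. Podxl turned positive with normexp offset 10 (0.028), median centring (0.0072), the scanner's log ratio (0.087) and without replicate 1 (0.16). Ptpro and Cd2ap turned positive with median centring (0.10 and 0.18), which moved the median of all genes up by 0.15. Relative to all genes, Ptpro then stood at −0.06, Cd2ap at 0.02 and Podxl at −0.15. Leaving out replicates gave −0.045 to 0.40 for Nphs1, −0.16 to 0.16 for Podxl and −0.087 to 0.29 for Synpo, lowest without replicate 3. Nphs1 and Synpo were at −0.0012 and −0.038 with slide as a block and with 1 value per slide. The slide comparison called 4, 4, 6 and 3 members under no background correction, offset 10, median centring and the scanner's log ratio, alternatives chosen after seeing the data. The share of all genes called is not at hand for these settings, so nothing is read from the counts. The causes were not tested. Null and wild-type RNA share each array, so the ratio is itself a paired comparison and no further block on the replicate number was fitted. Signal over background limits Lmx1b and 4 further probes.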
